A study of Mus musculus with 4 samples.

Results

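The genes described here are 41 genes that carry out DNA replication, out of 28146 gene names on a whole mouse genome expression array. They were taken from a list of gene symbols drawn up by function, with earlier results of these data known, and every one was found. Of these, 40 matched by the gene name on the array and Cdc45l matched through its newer symbol Cdc45. The 41 genes had 57 of the 41174 non-control probes, and each gene was followed by its brightest probe. All 41 of these probes were well above background on all 4 arrays. The genes fall into 7 groups by role, which are the MCM helicase, origin recognition and loading, helicase activation, the sliding clamp with its loader and the single-strand binding protein, the polymerases and primase, Okazaki fragment maturation, and nucleotide supply.

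Replication starts at origins, which the origin recognition complex marks. In G1, Cdc6 and Cdt1 help this complex to load the MCM helicase onto the DNA, a step called licensing, and geminin blocks Cdt1 once S phase has begun so that no origin fires again in the same cycle. The kinase Cdc7 with its partner Dbf4, together with Cdc45, Mcm10 and the GINS complex, turns the loaded helicase into an active one. Polymerases, primase, the clamp PCNA and its loader then copy the opened strands, and the flap nuclease and DNA ligase join the pieces of the lagging strand. Many of these genes are transcribed under the control of E2F factors as cells pass from G1 into S phase.

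The cells were EPH-4, a non-malignant line of spontaneously immortalized mouse mammary epithelial cells. The line shGR-19 stably carried a vector whose shRNA targets the glucocorticoid receptor (GR), and the line EV-50 carried the empty vector. Both carried a puromycin resistance plasmid and were kept in serum-free medium with 2 µg/ml puromycin and without glucocorticoid, so the comparison asks which genes differ when the receptor is depleted in the absence of its hormone. Each line was grown from 1 colony, and the spread between its 2 arrays does not cover differences between clones. Whether the duplicates were separate cultures is not stated, so the p-values below measure only the spread between these samples, which may be technical. In RNA from a whole culture, fewer cells in S phase and less RNA per cell cannot be told apart.

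Because E2F factors are known regulators of this class of genes, the promoters of the members were searched for letters of an E2F site, and the stretches that held them are printed for the members described array by array below. The letters searched were TTTCCCGC, TTTGGCGC, TTTCGCGC and TTTGCCGC, on both strands. The window ran from 250 bases before to 50 bases after each RefSeq start in the mouse assembly GRCm38.p6, where 33 of the 41 genes had a promoter. Each line gives 60 bases upstream of the start, 5′ to 3′ on the strand of the gene, with the E2F letters in capitals. In Mcm5 the capitals hold 2 matches that overlap, 1 on each strand.
Orc1l (now Orc1), chr4:108579394-108579453, + strand: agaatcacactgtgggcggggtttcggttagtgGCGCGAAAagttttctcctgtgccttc
Cdc6, chr11:98907987-98908046, + strand: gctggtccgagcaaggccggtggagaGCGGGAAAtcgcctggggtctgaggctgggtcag
Mcm5, chr8:75109330-75109389, + strand: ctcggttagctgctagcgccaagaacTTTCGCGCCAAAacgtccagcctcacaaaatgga
Mcm6, chr1:128359719-128359778, - strand: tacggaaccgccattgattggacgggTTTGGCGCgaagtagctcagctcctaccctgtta
Rfc3, chr5:151651209-151651268, - strand: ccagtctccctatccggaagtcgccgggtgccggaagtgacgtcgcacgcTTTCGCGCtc
Gins3, chr8:95633492-95633551, + strand: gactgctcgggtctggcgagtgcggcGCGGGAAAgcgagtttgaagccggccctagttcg

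The capitals began 27 bases before the start in Orc1l, 138 in Cdc6, 153 in Mcm5, 47 in Mcm6, 10 in Rfc3 and 41 in Gins3. Mcm6 held 3 matches before its start, and 1 of them lies in the printed stretch. Over the whole window the E2F letters were found in 12 of the 33 members (36.4%) and in 704 of all 27025 genes with a promoter (2.6%). Of the 17492 coding genes among these, 575 held them (3.29%). The other 6 members that held them were Mcm3, Mcm7, Cdt1, Pola1, Pold1 and Lig1, and in Mcm3, Cdt1 and Lig1, also described below, no match lay wholly before the start. The letters CCAAT, the core of the NF-Y site, were in 21 of the 33 (63.6%) against 41.1% of all genes and 42.3% of coding genes. The letters TTTGAA, known as the CHR element of genes that peak later in the cycle, were in 6 of the 33 (18.2%). Their share was 20.2% of all genes and 18.5% of coding genes. A match is a run of letters and was not tested for binding, none of the 3 sets of letters contains another, and genes with several starts were counted as holding the letters where any start did.

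Before the members are described, the arrays themselves need a word, since the 2 deposited sources differed. One source is the scanner output, with the intensity of every spot, and the other is a table of the authors' normalized log2 values, called the value table below, in which each probe is centred on its median over the 4 samples. Spots well above background numbered between 23290 and 27358 of 43379 on an array. In the scanner files, the log2 differences between the lines on the arrays labelled replicate 1 had an SD of 0.225 over 21172 probes, whereas the SD between duplicates was 0.616 under the EV-50 label and 0.705 under the shGR-19 label. In the value table the opposite held, with an SD of 0.532 between the lines for replicate 1 and of 0.205 and 0.21 between duplicates. The difference between lines in the scanner files correlated with that in the table at r = 0.0549 across probes for the arrays labelled replicate 1, and at r = 0.883 for those labelled replicate 2. The targeted gene, Nr3c1, which encodes GR, stood at 1.74 and 1.85 in the scanner files under the EV-50 label and at 1.39 and -0.11 under the shGR-19 label, in log2 units above the 75th percentile of the array. In the value table it read 0.98 and 0.95 against -0.95 and -0.98, a log2 difference of -1.94 (SE 0.0479, limma adjusted p = 0.00215). The difference in Nr3c1 between the lines was -0.35 for the scanner arrays labelled replicate 1 and -1.96 for the pair labelled replicate 2. Each probe was also taken relative to its mean over the 4 samples in either source, and arrays were correlated with table columns across 21172 probes. The scanner array labelled shGR-19 replicate 1 gave 0.186 and 0.179 with the EV-50 columns of the table. With its shGR-19 columns it gave -0.181 and -0.183, and so went against its label. The other 3 arrays correlated above 0 with the columns of their own line. For the array labelled EV-50 replicate 1 these values were only 0.222 and 0.175, close to those of shGR-19 replicate 1 with the same columns. They were 0.441 and 0.461 for EV-50 replicate 2, and 0.626 and 0.641 for shGR-19 replicate 2. Whether a scanner file lies under another sample's label was not tested. Both sources are therefore given side by side, scanner arrays are named by their labels, no label was changed, and a scanner mean under the shGR-19 label rests in part on the array that went against it.

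Markers of mammary epithelium were present, since 12 of 13 were well above background on all arrays, and their summed scaled level was 955 and 893 under the EV-50 label and 984 and 772 under the shGR-19 label. Of 10 fibroblast and mesenchymal markers, 3 were well above background on all arrays (Col1a2, Pdgfrb and Vim), and Cdh2 and Dcn were so on none. The summed level of this list was 2.03 and 6.28 against 1.91 and 47.4, in the same order, so that it was highest in shGR-19 replicate 2. The 4 kept genes of the list were Col1a2, Pdgfrb, Vim and Pdgfra, and their median log2 difference in the table was 1.93. All 4 rose there at an adjusted p below 0.01 by limma, against 5.52% of all kept probes. A probe was kept where both arrays of at least 1 line had it well above background. Pdgfra was not so on all arrays and was kept through 1 line only, which favours genes that differ. Vim and Pdgfra were also dim, with scanner values from -5.19 to -3.18 and from -5.80 to -2.91 in the log2 units above. The immune list summed to between 0.695 and 0.82 with Ptprc, Itgam and Emr1 well above background on no array, and the endothelial and adipocyte list summed to between 0.284 and 0.391. The part of the mesenchymal markers in the results below was not tested.

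In the value table, the replication genes were lower in shGR-19 than in EV-50 for 34 of 41 members (82.9%), against 49% of all 24436 kept probes. The median log2 difference of the members was -0.33, and that of all kept probes was 0.0087. At an adjusted p below 0.01, by limma with Benjamini-Hochberg adjustment over all kept probes, 13 members were lower (31.7%) and 0 were higher, while 6.04% of all kept probes were lower and 5.52% were higher. The 13 were Orc1l, Mcm2, Cdc6, Mcm5, Mcm10, Pole, Mcm3, Rrm2, Lig1, Rpa2, Cdt1, Mcm6 and Fen1, in order of the size of the difference. Only Orc1l of the 41 also differed by over 2-fold, and 2.39% of all kept probes met both criteria in this direction. At an adjusted p below 0.05, 26 members were lower (63.4%) and 1, Tk1, was higher, against 18.2% and 18.3% of all kept probes. Both shGR-19 values lay below both EV-50 values for 32 members (78%), against 35.3% of kept probes. The 13 calls at 0.01 depended on the full set of samples. With any 1 of the 4 samples left out, 0 members and 0 of all kept probes passed in limma. The members with an unadjusted p below 0.05 then numbered between 24 and 26 (58.5% to 63.4%), against 37.1% to 40.2% of all kept probes, while in the fit of all 4 samples they numbered 31 (75.6%), against 48.4%. When every non-control probe was fitted, 0 members and 43 of the 41174 probes (0.104%) passed, and 30 members (73.2%) had an unadjusted p below 0.05, against 41.2% of these probes.

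In the scanner files, no member was called by limma at an adjusted p below 0.01 and 0 had an unadjusted p below 0.05. Of all 24436 kept probes, 0 (0%) passed the first threshold and 207 (0.847%) the second. The mean difference was nevertheless below 0 for 35 of the 41 members (85.4%), against 47.5% of all kept probes, with a median of -0.17. The 2 replicate pairs did not give this alike. Between the arrays labelled replicate 2, 36 members were lower in shGR-19 (87.8%, against 49% of probes) with a median of -0.37. Between the arrays labelled replicate 1, 7 members were lower (17.1%, against 41.6% of probes) with a median of 0.038, and their differences ran only from -0.14 to 0.18. Both scanner arrays labelled shGR-19 lay below both labelled EV-50 for 1 member, Pola1, against 6.45% of kept probes. With the array labelled shGR-19 replicate 2 left out, the median was -0.011 and 23 members were lower.

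**Figure D1:**
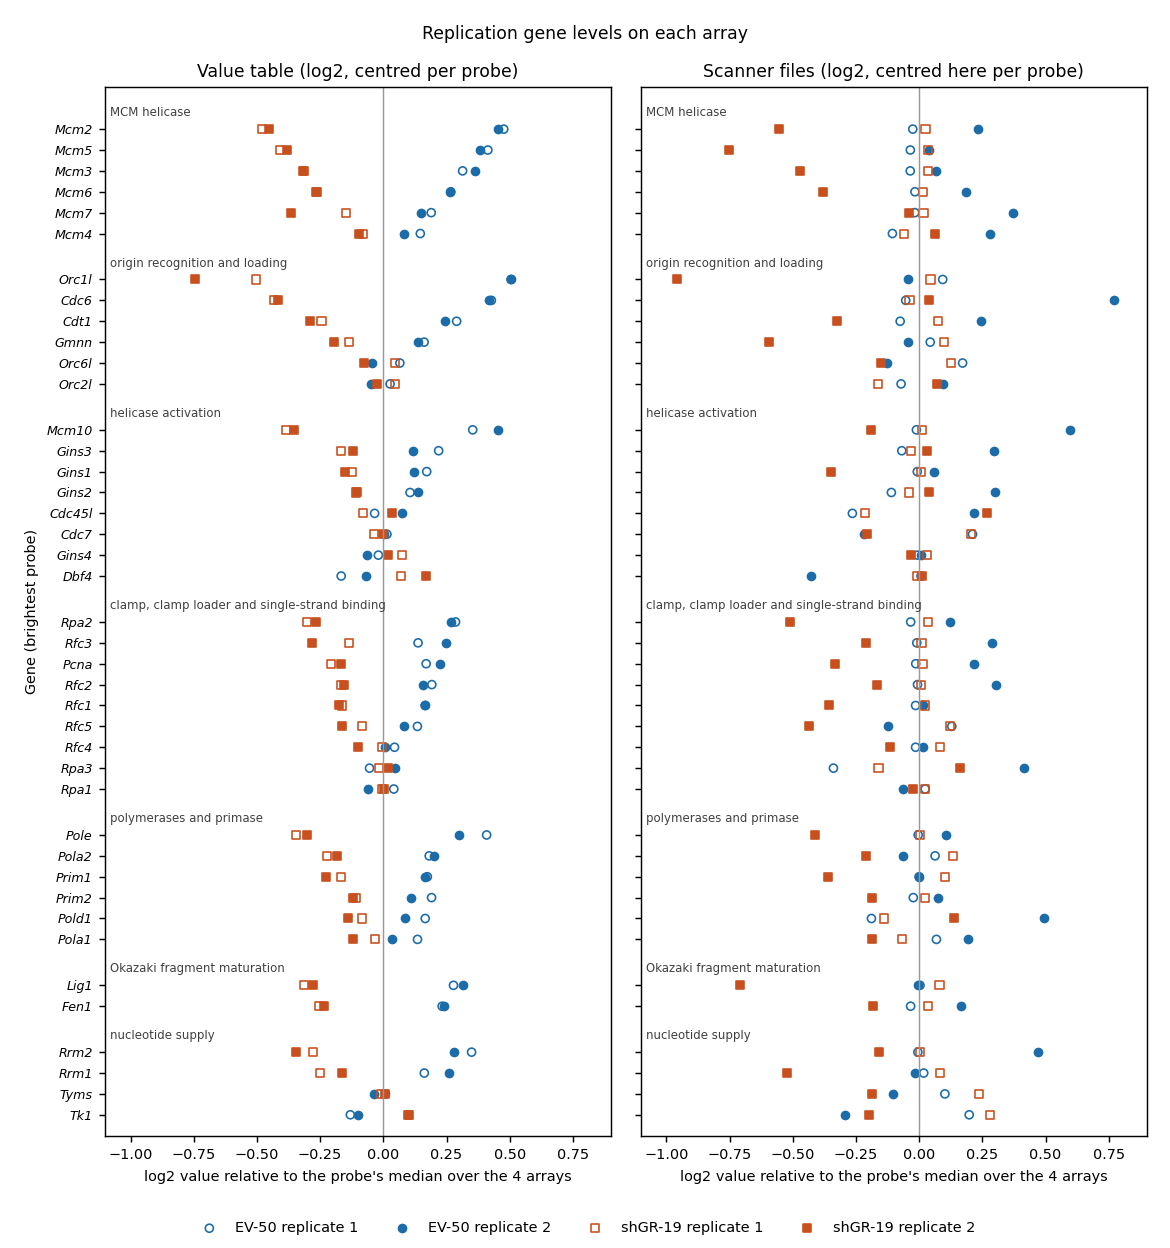
Values of the 41 replication genes on each array, in log2 units relative to each probe's median over the 4 arrays, by role group. In the value table (left) the 2 shGR-19 squares lie below the 2 EV-50 circles for 32 genes, whereas in the scanner files (right) this holds for Pola1 alone and the open symbols, labelled replicate 1, mostly lie together.

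The 6 subunits of the MCM helicase, the ring that unwinds DNA at the fork, were all below EV-50 in the shGR-19 columns of the value table, and 4 of them passed the test. The median log2 difference of the group was -0.59. In the value table Mcm2 read 0.48 and 0.45 in EV-50 and -0.48 and -0.45 in shGR-19, a log2 difference of -0.93 (SE 0.047, adjusted p = 0.00387), or 1.91-fold lower. In log2 signal above the 75th percentile, its scanner values were 3.63 and 3.89 under the EV-50 label and 3.68 and 3.10 under the shGR-19 label. The low scanner value of Mcm2 was thus that of the array labelled shGR-19 replicate 2, and the 2 arrays labelled replicate 1 differed by 0.050. Mcm5 read 0.41 and 0.38 against -0.41 and -0.38 in the table, a difference of -0.79 (SE 0.0477, adjusted p = 0.00469). On the scanner arrays it was at 5.28 and 5.36 in EV-50 and at 5.35 and 4.57 in shGR-19, so that 1 of the 4 arrays stood apart from the rest. Mcm3 read 0.31 and 0.36 against -0.31 and -0.32, a difference of -0.65 (SE 0.0488, adjusted p = 0.00615), and its scanner values were 4.75 and 4.85 against 4.82 and 4.31. Mcm6 read 0.27 and 0.26 against -0.26 and -0.27 in the table, a difference of -0.53 (SE 0.0453, adjusted p = 0.00747). The scanner arrays gave 6.87 and 7.07 against 6.90 and 6.51. Duplicates of Mcm6 agreed in the table within 0.01, and the lines did not overlap. Mcm7 had a table difference of -0.43 (SE 0.0949, adjusted p = 0.043), with the shGR-19 duplicates 0.22 apart. Mcm4 differed least of the 6, by -0.20 (SE 0.052, adjusted p = 0.0573), and did not pass either threshold.

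Among the genes that mark origins and load the helicase, Orc1l, Cdc6 and Cdt1 passed the test and were lower in shGR-19, and Gmnn, Orc2l and Orc6l did not pass. Orc1l encodes the largest subunit of the origin recognition complex, and its promoter stretch is the first printed above. Its probe lies at chr4:108284772-108285679 of the mm9 assembly, to which the array's annotation refers. In the value table Orc1l read 0.51 and 0.51 in EV-50 and -0.51 and -0.74 in shGR-19, a log2 difference of -1.13 (SE 0.101, adjusted p = 0.00801). This 2.19-fold decrease was the largest of the 41 genes in the table. On the scanner arrays it was at -0.23 and -0.37 against -0.28 and -1.28. Cdc6, the loading ATPase, read 0.43 and 0.42 against -0.43 and -0.42 in the table, a difference of -0.85 (SE 0.0459, adjusted p = 0.00413). On the scanner arrays Cdc6 was at 1.04 and 1.86 in EV-50 and at 1.05 and 1.13 in shGR-19. Here it was the array labelled EV-50 replicate 2 that stood apart, above the rest. The second kept probe of Cdc6 gave a table difference of -0.62 and missed the threshold (adjusted p = 0.0137). Cdt1, which loads the helicase with Cdc6, read 0.29 and 0.24 against -0.24 and -0.29, a difference of -0.54 (SE 0.0513, adjusted p = 0.00882). The scanner arrays gave 4.82 and 5.14 against 4.97 and 4.57, with the array labelled shGR-19 replicate 1 between the EV-50 arrays. Gmnn, which encodes the Cdt1 inhibitor geminin, differed in the same direction by -0.31 (SE 0.0508, adjusted p = 0.0222) and passed only the 0.05 threshold. Orc2l and Orc6l, further subunits of the recognition complex, differed by 0.022 (SE 0.0604) and -0.025 (SE 0.0773), and for both genes the table values of the lines overlapped.

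The helicase activation genes were mixed. Of 8 genes, 6 were lower and 2 higher in the value table, 1 passed the test, and the group median was -0.14. Mcm10, which is needed for origin firing, read 0.35 and 0.46 in EV-50 and -0.39 and -0.35 in shGR-19, a log2 difference of -0.77 (SE 0.0604, adjusted p = 0.0065). Its levels on the scanner arrays were 4.38 and 4.99 against 4.41 and 4.21, and the array labelled EV-50 replicate 2 was the high one. Gins3 encodes a GINS subunit, and read 0.22 and 0.12 against -0.17 and -0.12 in the table, a difference of -0.31 (SE 0.0614, adjusted p = 0.033). On the scanner arrays it was at 0.77 and 1.14 in EV-50 and at 0.81 and 0.87 in shGR-19, so that the groups overlapped. The GINS genes Gins1 and Gins2 had table differences of -0.28 (SE 0.0499, adjusted p = 0.0261) and -0.23 (SE 0.0469, adjusted p = 0.0362), whereas Gins4 was at 0.089 (SE 0.0525, adjusted p = 0.267). The test of a difference among the GINS subunits was not made. The kinase gene Cdc7 differed by -0.028 (SE 0.0474) and Cdc45l by -0.044 (SE 0.0751). Dbf4, the activator of Cdc7, had the most positive difference of the 41 genes at 0.24 (SE 0.0693, adjusted p = 0.0752), and did not pass. Its second kept probe, with a mean signal of 43.1 against 2450 for the brightest, had the opposite sign at -0.43.

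Clamp, clamp loader and single-strand binding genes were mostly lower, with a group median of -0.33 in the value table and 7 of 9 genes below 0. The call fell on Rpa2, a subunit of the protein that coats single-stranded DNA. Rpa2 read 0.29 and 0.27 in EV-50 and -0.30 and -0.27 in shGR-19, a log2 difference of -0.56 (SE 0.0474, adjusted p = 0.00738). Scanner values of Rpa2 were 3.48 and 3.64 against 3.55 and 3.01. The second probe of Rpa2 gave -0.60 in the table and also passed (adjusted p = 0.00834). The other subunits of the same protein had differences near 0, with 0.0089 (SE 0.0591) for Rpa1 and 0.0034 (SE 0.0608) for Rpa3, and their table values overlapped. The difference between subunits was not tested. Of the 5 loader genes, Rfc3 had the largest table difference. Rfc3 read 0.14 and 0.25 against -0.14 and -0.28, a difference of -0.40 (SE 0.0823, adjusted p = 0.0357), and its scanner values were 1.59 and 1.89 against 1.61 and 1.39. Rfc2 and Rfc1 differed by -0.34 (SE 0.0474, adjusted p = 0.0172) and -0.33 (SE 0.0455, adjusted p = 0.0161). Rfc5 at -0.23 and Rfc4 at -0.0785 did not pass the 0.05 threshold (adjusted p = 0.0536 and 0.37).

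Pcna, the sliding clamp, allowed a look at the error within an array, because its probe was printed as 10 spots on each. Its table difference was -0.39 (SE 0.052, adjusted p = 0.0158). The mean of the 10 scanner spots was 5.63 ± 0.0711 (SD, n = 10 spots) for EV-50 replicate 1 as labelled and 5.86 ± 0.0646 (SD, n = 10 spots) for EV-50 replicate 2. For shGR-19 replicates 1 and 2 the means were 5.66 ± 0.0842 and 5.31 ± 0.0682 (SD, n = 10 spots each). The highest spot of shGR-19 replicate 2, at 5.42, lay below the lowest spot of each of the other arrays, the lowest of which was 5.48. The spots are repeats within an array and are not replicates of a line. They measure the error within an array only, and the spread between samples is not covered by it. The duplicates under the shGR-19 label lay 0.35 apart, and the replicate 1 arrays of the lines overlapped.

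**Figure D2:**
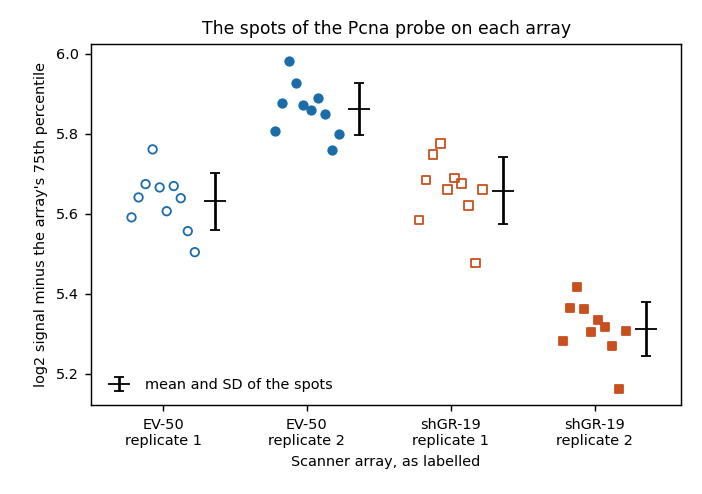
The 10 Pcna spots on each scanner array, in log2 signal minus the array's 75th percentile, with the mean and SD of the spots beside them. The arrays labelled replicate 1 of both lines overlap (means 5.63 and 5.66). EV-50 replicate 2 has a higher mean, but its lowest spot (5.759) lies below the highest spot of shGR-19 replicate 1 (5.776). All spots of shGR-19 replicate 2 lie below those of the other arrays.

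All 6 polymerase and primase genes had differences below 0 in the value table, with a median of -0.32, and Pole passed the test. Pole, the catalytic subunit of the leading strand polymerase, read 0.41 and 0.30 in EV-50 and -0.35 and -0.30 in shGR-19, a log2 difference of -0.68 (SE 0.0631, adjusted p = 0.00844). The scanner arrays gave 2.50 and 2.61 against 2.51 and 2.10, so that 3 of the 4 arrays lay within 0.11 of each other. Pola2, the second subunit of the polymerase that extends primers, read 0.18 and 0.20 against -0.22 and -0.18 in the table, a difference of -0.39 (SE 0.0482, adjusted p = 0.0134). On the scanner arrays it was at 1.35 and 1.23 against 1.42 and 1.08, where the groups overlapped. The primase subunits Prim1 and Prim2 differed by -0.37 (SE 0.0509, adjusted p = 0.0166) and -0.26 (SE 0.0548, adjusted p = 0.0368). Pold1, the catalytic subunit of the lagging strand polymerase, was at -0.24 (SE 0.0585, adjusted p = 0.0522). Pola1, the catalytic subunit partnered by Pola2, was at -0.16 (SE 0.0679, adjusted p = 0.156). It was the gene whose scanner arrays did not overlap, with 0.67 and 0.79 in EV-50 against 0.53 and 0.41 in shGR-19 and a scanner difference of -0.26 (SE 0.212, adjusted p = 1).

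Both genes of Okazaki fragment maturation passed the test in the value table and were lower in shGR-19. Lig1, the ligase that seals the lagging strand, read 0.28 and 0.32 in EV-50 and -0.31 and -0.28 in shGR-19, a log2 difference of -0.59 (SE 0.0492, adjusted p = 0.00718). Scanner values of Lig1 were 5.60 and 5.59 against 5.68 and 4.89, and the first 3 of these arrays lay close together. Fen1, the flap nuclease, read 0.23 and 0.24 against -0.25 and -0.23 in the table, a difference of -0.48 (SE 0.0459, adjusted p = 0.00882). Its scanner values were 4.04 and 4.24 against 4.10 and 3.89.

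Of the 4 nucleotide supply genes, Rrm2 passed the test in the value table. Rrm1 was lower and Tk1 higher at the 0.05 threshold, and Tyms passed neither threshold. Ribonucleotide reductase makes deoxynucleotides. Rrm2, its regulated small subunit, read 0.35 and 0.28 in EV-50 and -0.28 and -0.34 in shGR-19, a log2 difference of -0.63 (SE 0.058, adjusted p = 0.00843). Its scanner values were 2.11 and 2.58 against 2.12 and 1.95. Rrm1, the large subunit, read 0.16 and 0.26 against -0.25 and -0.16 in the table, a difference of -0.42 (SE 0.0665, adjusted p = 0.0219). Scanner values of Rrm1 were 4.83 and 4.79 against 4.89 and 4.28, so that the array labelled shGR-19 replicate 2 alone was low. Tyms, thymidylate synthase, differed by 0.014 (SE 0.0487, adjusted p = 0.846), with overlapping lines. Tk1, the thymidine kinase of S phase, read -0.13 and -0.10 against 0.10 and 0.10 in the table, a difference of 0.22 (SE 0.0468, adjusted p = 0.0407), and was the member that rose at the 0.05 threshold. The difference between the enzymes was not tested.

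**Figure D3:**
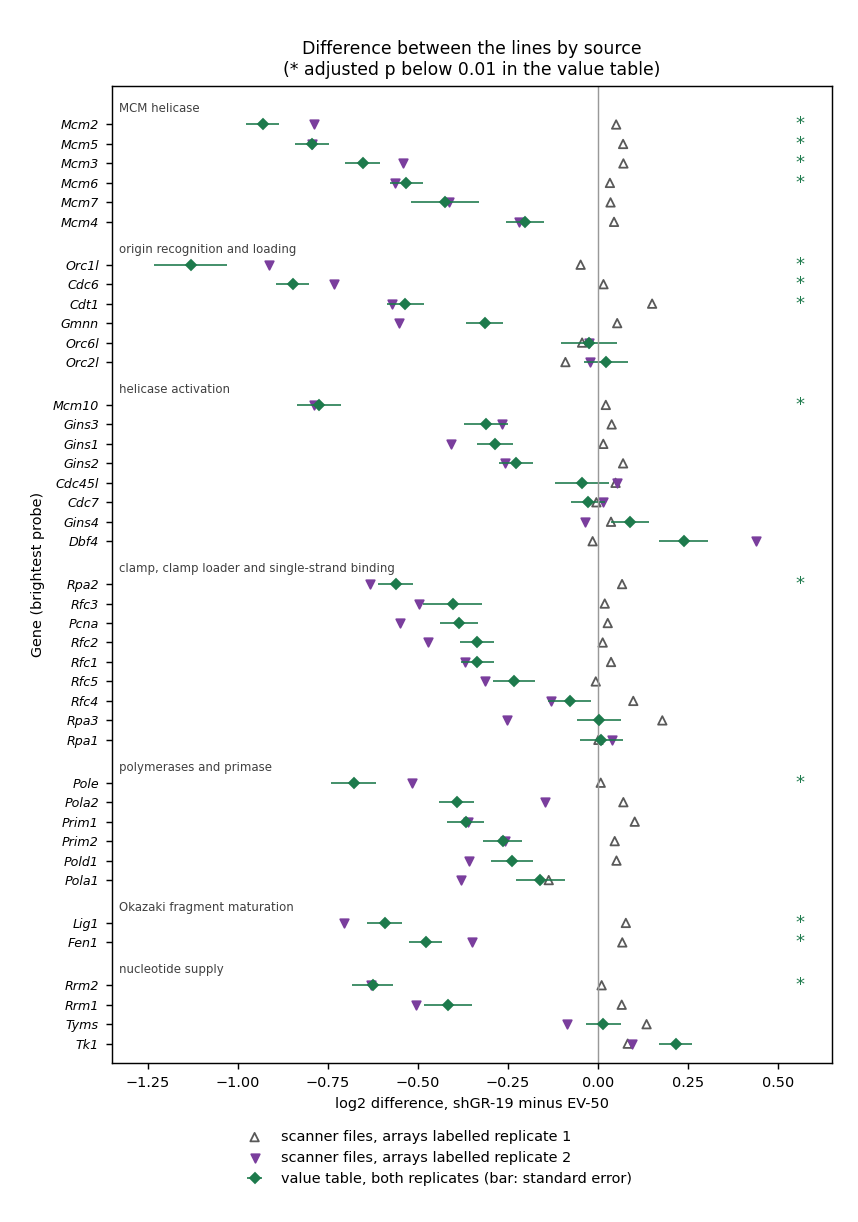
Log2 difference between shGR-19 and EV-50 for each replication gene in the value table (diamonds, with the standard error), between the scanner arrays labelled replicate 2 (filled triangles) and between those labelled replicate 1 (open triangles). Stars mark the 13 genes with an adjusted p below 0.01 in the value table; the open triangles run from -0.14 to 0.18, while the filled ones reach -0.91 at Orc1l.

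The members were also set against their promoter letters, as a description with no test. The 12 members with E2F letters had a median table difference of -0.53, and the 21 with a promoter but without these letters had -0.23. Their ranges overlapped widely. With the letters they ran from -1.13 in Orc1l to -0.16 in Pola1, with Pold1 at -0.24, and without them from -0.93 in Mcm2 to 0.24 in Dbf4, with Mcm10 at -0.77 and Rrm2 at -0.63. For CCAAT the medians were -0.40 with the letters (21 members) and -0.24 without (12). For TTTGAA they were -0.18 with (6) and -0.39 without (27). The probes of the members lay on 14 chromosomes, and 9 of the 41 were on chromosome 5, among them Mcm7, Pole, Tyms, Cdc7, Dbf4 and all the loader genes except Rfc4.

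A gene with several probes gives a check on the probe chosen. Of the 41 members, 9 had over 1 kept probe, and 7 of these kept the same sign across probes in the value table. The exceptions in the table were Dbf4, given above, and Tyms, whose further probes ran from -0.31 to 0.0051, beside 0.014 for the brightest. In the scanner files 6 of the 9 kept the same sign. Pola2 was the added exception there, at -0.038 for the brightest probe and 0.67 for the second kept probe. That second probe was dim, with a mean signal of 13.8 against 1390 for the brightest. Of the 9, only Rpa2 and Cdc6 were called by their brightest probe at an adjusted p below 0.01 in limma on the value table. The second probe of Rpa2 was called as well, and that of Cdc6 was not. No kept probe of the remaining genes was called, so these genes give no check on a call. A further 5 probes, of Mcm4, Dbf4, Pola2, Pole and Rrm1, were not kept because they were not well above background. In the value table these 5 nevertheless read lower in shGR-19, from -0.22 for Dbf4 to -0.61 for Pole. A lower sign from a dim probe is therefore a weak check.

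Other genes of the same pathways were listed by function. Their calls are to be read against the 6.04% of all kept probes that were lower and the 5.52% that were higher at an adjusted p below 0.01, and nothing particular to a list was tested. Among 29 further replication genes, 22 were lower in shGR-19 by the value table, 3 of these (10.3%) passed at an adjusted p below 0.01 and 1 (3.45%) rose, with a median log2 difference of -0.25. Dscc1, of an alternative clamp loader, read 0.44 and 0.50 in EV-50 and -0.44 and -0.45 in shGR-19, a difference of -0.91 (SE 0.05, adjusted p = 0.00416). Wdhd1, which ties the helicase to the primer polymerase, differed by -0.83 (SE 0.0573, adjusted p = 0.00555), and the helicase gene Recql4 by -0.75 (SE 0.05, adjusted p = 0.00525). The gene that rose was Pold4, the smallest subunit of the lagging strand polymerase, at 0.56 (SE 0.0453, adjusted p = 0.00695), which was named after its value was seen. Of 13 replication checkpoint genes, 11 were lower and 4 (30.8%) passed, with a median of -0.57. Atr, the kinase that answers stalled forks, read 0.44 and 0.41 against -0.41 and -0.47, a difference of -0.87 (SE 0.0506, adjusted p = 0.00457). Its activator Topbp1 differed by -0.81 (SE 0.0496, adjusted p = 0.00474), while Clspn, at -0.69 (SE 0.104, adjusted p = 0.0194), missed the 0.01 threshold. The remaining calls, Timeless and Atrip, were named after their values were seen. Among 8 genes that rebuild chromatin behind the fork, 6 were lower and 2 (25%) passed. These were Hells, a chromatin remodeller, at -0.64 (SE 0.0464, adjusted p = 0.00588) and Chaf1a, of the histone chaperone CAF-1, at -0.51 (SE 0.0518, adjusted p = 0.00947). Uhrf1, at -0.55 (SE 0.0596, adjusted p = 0.0108), missed the 0.01 threshold. In the scanner files 0 genes of these lists passed in limma and 0 had an unadjusted p below 0.05, with medians of -0.10, -0.23 and -0.072 in the order given.

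**Figure D4:**
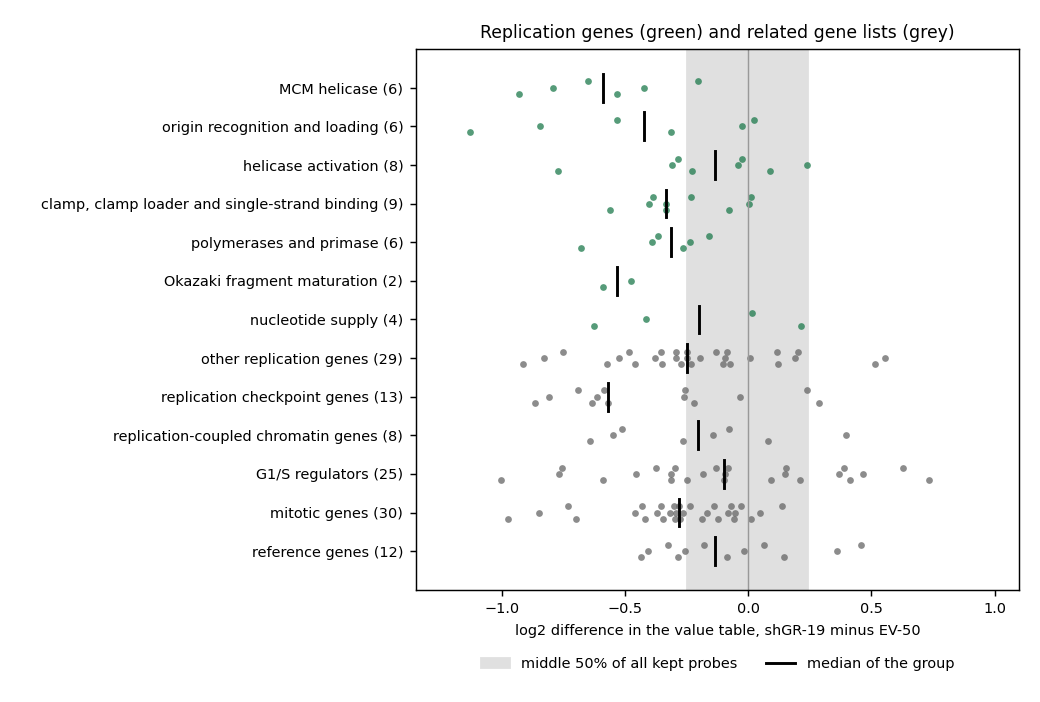
Log2 difference in the value table for the 7 role groups of replication genes (green) and for related gene lists (grey), 1 point a gene with the number of genes in brackets and a black line at the median. The shaded band holds the middle 50% of all kept probes, from -0.25 to 0.24. The medians of 5 of the 7 role groups lie below the band, from -0.59 for the MCM helicase to -0.32 for the polymerases, as do those of the checkpoint genes (-0.57), the mitotic genes (-0.28) and, by a small margin, the other replication genes (-0.2501 against -0.248).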

How the data were processed

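RNA from EV-50 and shGR-19, 300 ng per sample and 2 arrays per line, was labelled with Cy3 for Agilent whole genome arrays. The authors deposited the intensity of each spot, background-subtracted by Agilent Feature Extraction 10.5.1.1 with its one-colour defaults. The authors also deposited log2 values made in GeneSpring, centred per probe on the median of the 4 samples. The direction of that table follows from its column labels, and the medians of its columns were 0.0763, 0.0381, -0.056 and -0.0634. Centring leaves differences between samples unchanged and removes the level of the probe.

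Each array's processed intensity was divided by its own 75th percentile (551, 612, 540 and 609) and put on a log2 scale. Control spots and outlier spots (between 74 and 139 an array) were dropped, and repeated spots of a probe were averaged. A probe was kept (24436 in all) where both arrays of at least 1 line had it well above background, and 3 of them lacked a value on an array after outliers were left out. Both sources were fitted with limma 3.58.1 in R 4.3.3 (lmFit, eBayes) without a block, and p-values were adjusted by Benjamini-Hochberg over all kept probes. A member was called at an adjusted p below 0.01, the p of the study's methods, which name no adjustment. All 4 arrays were on 1 slide and in 1 scan, so neither was fitted. No spot was saturated. Precision is limited by the number of arrays.

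The members and lists were chosen with earlier results of these data known. Every member is named. Values on each array are given for the called members (at most 12) and for the 2 members of each role group with the largest table difference, 17 in all. From each further list at most 3 genes were chosen by the largest table difference. Genes beyond these were named after their values were seen. Probe positions are those of mm9 in the files; promoter sequences are RefSeq's for GRCm38.p6. Alternatives were normexp background correction (offset 50), quantile normalization, another percentile set, other filters, eBayes with an intensity trend and robust prior (using statmod 1.5.0), the replicate block, each array left out, other thresholds, averaging the probes of a gene, and the replicate pairs alone. The fits were tested on simulated data.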

Additional observations from a re-analysis of the deposited data

How the results depend on the processing

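The count of called members depended on the source and on the settings. In place of the 13 in the value table, where 11.6% of all kept probes were called in either direction, there were 0 in the scanner files, 27 at an adjusted p below 0.05 (36.5% of all kept probes), 22 at an unadjusted p below 0.01 (29.9%), 29 with an intensity trend and robust prior (38.6%), 0 with all probes kept (0.104% of these) and 0 with the replicate block. The block also called 0 of all kept probes, and 12085 of them and 32 members had an unadjusted p below 0.05. The count was 0, of members and of all kept probes, with any 1 sample left out, where the sample left alone was taken to vary as the duplicates of the other line do. With the value table in place of the scanner files, the scanner count of 0 became 13. The median member difference was -0.33 in the value table and -0.17 in the scanner files, where it was 0.038 between the arrays labelled replicate 1 and -0.37 between those labelled replicate 2. In the scanner files 35 members were lower, but 7 between the arrays labelled replicate 1, and from 23 (without shGR-19 replicate 2) to 37 with 1 array left out. This count of lower members, with no test, was added after the data were seen. With 1 array left out, scanner differences ran from -0.77 to 0.053 for Cdc6, -0.30 to 0.069 for Gins3, -0.71 to 0.081 for Lig1, -0.49 to 0.019 for Mcm3, -0.75 to 0.032 for Mcm5, -0.98 to 0.021 for Orc1l, -0.21 to 0.13 for Pola2 and -0.52 to 0.084 for Rrm1. These turned positive without EV-50 replicate 2 for Cdc6 and Gins3 and without shGR-19 replicate 2 for the rest. Pola2 was also positive, at 0.025, without EV-50 replicate 1. Normexp, quantile normalization and the detected-probe percentile moved the median of all kept probes from 0.013 to between -0.0058 and 0.032 and left the members 0.15 to 0.20 below it. The causes were not tested. The replicate numbers were not taken as pairs in the main fit. Deviations of same-numbered samples correlated at 0.652 in the scanner files and 0.109 in the value table. What same-numbered scanner arrays share thus stays in the residual of the main scanner fit and adds to its standard errors. In the scanner files the block also gave 0 called members.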

Other observations

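Genes of the rest of the cell cycle were measured beside the replication genes. Of 30 mitotic genes, 27 were lower in shGR-19 by the value table and 3 (10%) passed at an adjusted p below 0.01 by limma, against 49% and 6.04% of all kept probes, with a median log2 difference of -0.28 and of -0.15 in the scanner files. The 3 that passed were Nek2, a centrosome kinase, at -0.85 (SE 0.0701, adjusted p = 0.00706), Kif20a, a kinesin of cytokinesis, at -0.73 (SE 0.0616, adjusted p = 0.00732), and the condensin subunit Ncapd2, which was named after its value was seen. Ttk, a spindle checkpoint kinase, had the largest difference of the list at -0.97 but more spread (SE 0.145, adjusted p = 0.0191).

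The 25 kept regulators of the G1 to S transition moved in both directions, with 15 lower, 10 higher and a median of -0.097 in the value table. Ccnd2, which encodes cyclin D2, read 0.57 and 0.47 in EV-50 and -0.50 and -0.47 in shGR-19, a 2-fold decrease (log2 difference -1.003, SE 0.0614, adjusted p = 0.00474). Tfdp2, a partner of E2F proteins, differed by -0.76 (SE 0.0514, adjusted p = 0.00536), and Ccne2, cyclin E2, by -0.77 (SE 0.111, adjusted p = 0.0179). Ccne1, cyclin E1, went the other way at 0.63 (SE 0.0705, adjusted p = 0.0114), and both cyclin E genes missed the 0.01 threshold. E2f8 fell and E2f3 rose at an adjusted p below 0.01, and both were named after their values were seen. At this threshold 12% of the list was lower and 4% higher in limma, against 6.04% and 5.52% of all kept probes. In the scanner files 0 passed. E2f3 stood at 0.73 (SE 0.0456, adjusted p = 0.00484). Of 12 reference genes, 8 were lower in the table with a median of -0.13, and 0 passed at 0.01 in limma, while 8 (66.7%) had an unadjusted p below 0.05, against 48.4% of all kept probes. Among them Hprt differed by -0.41 (SE 0.0485), Actb by -0.44 (SE 0.0609) and Tbp by 0.46 (SE 0.0632). Of the 12 kept epithelial markers, 7 were lower and 5 higher with a median of -0.016, and 1 passed at 0.01. This was Krt14, a basal keratin, at -1.13 (SE 0.0486, adjusted p = 0.00332). Krt5, the other basal keratin of the list, was at -0.30 (SE 0.305, adjusted p = 0.499). At the 0.05 threshold 3 markers were lower and 2 were higher. The lower ones were Krt14, Ocln at -0.60 (SE 0.0857, adjusted p = 0.0179) and Krt7 at -0.29 (SE 0.0525, adjusted p = 0.0277). The higher ones were Krt18 at 0.23 (SE 0.0464, adjusted p = 0.0346) and Elf3 at 0.52 (SE 0.106, adjusted p = 0.0356).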
